A study of Mus musculus with 36 samples.

Results

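MiR-21 is a microRNA (miRNA) cut from 1 hairpin, which in the mouse yields mmu-miR-21a-5p from its 5′ arm and mmu-miR-21a-3p from its 3′ arm. Both arms were measured here in mouse prostate by small RNA sequencing, and they were chosen by name as 2 of the 1963 miRNAs listed in the data. The tissue was ventral and lateral prostate lobes of male mice of the strain labelled C56NL/6N. WT mice carried the normal Elac2 gene (ELAC2+/+), KO mice had lost exon 8 of Elac2 in the prostate through a Cre recombinase under the probasin promoter (ELAC2-/-), and A537T mice carried an alanine to threonine change in ELAC2 (Ala537Thr) on both alleles in the whole body. Elac2 encodes the enzyme RNase Z, which removes 3′ trailers from precursor transfer RNAs. All lines were sampled without and with 1 copy of the TRAMP transgene (WT-TRAMP, KO-TRAMP and A537T-TRAMP), which drives the SV40 T antigens from the probasin promoter in prostate epithelium, at an age of 10 or 30 weeks. The design thus held 12 groups with 3 libraries each, 36 in total.

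A miRNA guides Argonaute proteins to messenger RNAs that pair with its seed, bases 2 to 8, and these messengers are then repressed. MiR-21-5p is the guide strand and is known as an oncogenic miRNA that is high in many solid tumours and represses the tumour suppressor Pdcd4. The 3p arm is the passenger strand of the same duplex and is mostly degraded after the guide has been loaded.

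The mature sequences of both arms and of the related miR-21b and miR-21c are given because the results compare the arms of 1 hairpin and its close relatives. They are RefSeq sequences on the build GRCm38.p6, written 5′ to 3′, with the seed in capitals.
miR-21a-5p: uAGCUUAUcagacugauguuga
miR-21a-3p: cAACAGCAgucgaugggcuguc
miR-21b: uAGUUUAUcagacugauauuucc
miR-21c: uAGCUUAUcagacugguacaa

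MiR-21a-5p lies at chr11:86584120-86584141 and miR-21a-3p at chr11:86584082-86584103, both on the minus strand. Their hairpin, Mir21a, spans 92 bases at chr11:86584067-86584158. It sits whole within the last exon of Vmp1, in the 3′ UTR of the transcript Vmp1-201, on the same strand. Vmp1 encodes a membrane protein needed for autophagy. MiR-21b is encoded at chr3:29636768-29636790 on the plus strand and miR-21c at chr8:128278188-128278208 on the minus strand. Counted from 1 at the 5′ end of miR-21a-5p, miR-21b differed by C4U, G18A, G21U and A22C, so that its seed is another one. MiR-21c differed by A16G, G18A, U19C, U20A and G21A and kept the seed. Of the 1674 distinct mature mouse sequences in the RefSeq table, 2 had the seed of miR-21a-5p, and these were miR-21a-5p itself and miR-21c. MiR-590-5p, listed in the same seed family, is missing from that table, so its sequence is not given.

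Library depth ran from 655455 to 21870210 miRNA reads, and all libraries but 1 held at least 4544257. The shallowest was an A537T library at 10 weeks, numbered 35 in the table headers. For the epithelium of the tissue, 7 miRNAs were looked up, the miR-200 family, miR-141, miR-205 and miR-203. All were detected, and together they took 3.91% to 10.0% of the reads. They mark epithelium and not prostate alone, so they cannot check the prostate label. The sum of 12 skeletal muscle miRNAs, all detected, was high in mice without the transgene at 10 weeks, with 9.74% to 30.7% of the reads in WT, 0.736% to 6.51% in KO and 3.72% to 13.7% in A537T, and it was at most 0.821% in the same lines at 30 weeks. The averaged results that use the WT libraries at 10 weeks are also given without the WT line. The libraries with the transgene carry the numbers 1 to 18 and those without it the numbers 19 to 36. Within each background the ages, and within each age the lines, also carry consecutive numbers. An order of preparation, if there was one, thus cannot be told apart from the transgene, nor from age or line within a background. The files hold no Elac2 messenger RNA, so no value checks the genotype labels.

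MiR-21a-5p was among the most abundant miRNAs of the prostate. It took 8.76% of the reads on average, behind miR-148a-3p with 18.7% and miR-143-3p with 18.3%, and ahead of miR-26a-5p with 4.10%. It was the second most abundant miRNA in 7 libraries, the third in 22 and the fourth in 7. Its share ran from 3.49% to 18.3% with a median of 8.93%. MiR-21a-3p was rare, at 2.16 to 25.04 reads per 1000000 miRNA reads (CPM) with a median of 8.14, and ranked between 213 and 439. Behind these values stood 44129 to 2134805 reads of the 5p arm and 5 to 310 reads of the 3p arm per library. The ligation of adapters favours some sequences over others, so the ratio of reads between 2 miRNAs is no ratio of molecules, while changes of 1 miRNA between libraries are less touched by it.

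Without the transgene at 10 weeks, miR-21a-5p took 3.91%, 6.08% and 4.50% of the reads in the WT libraries. It took 4.34%, 4.25% and 3.49% in KO and 7.32%, 6.73% and 5.28% in A537T. The KO libraries were the most alike, and WT overlapped with both mutant lines. With the transgene at 10 weeks, the shares were 12.6%, 11.1% and 9.87% in WT-TRAMP. They were 10.9%, 9.23% and 8.81% in KO-TRAMP and 12.2%, 4.86% and 8.27% in A537T-TRAMP. One A537T-TRAMP library thus lay within the range of the libraries without the transgene, and the other TRAMP libraries lay above all of them.

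At 30 weeks without the transgene, the shares of miR-21a-5p were 9.52%, 9.06% and 8.58% in WT. They were 5.71%, 9.46% and 6.21% in KO and 6.96%, 10.4% and 5.75% in A537T. The WT libraries were close together, and each mutant line held 1 library within or above the WT range and 2 below it. With the transgene at 30 weeks, the shares were 9.11%, 14.6% and 12.0% in WT-TRAMP. They were 18.3%, 7.03% and 11.6% in KO-TRAMP and 11.4%, 14.6% and 11.3% in A537T-TRAMP. KO-TRAMP spanned the widest range of the 12 groups and held the highest library of the series.

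**Figure D1:**
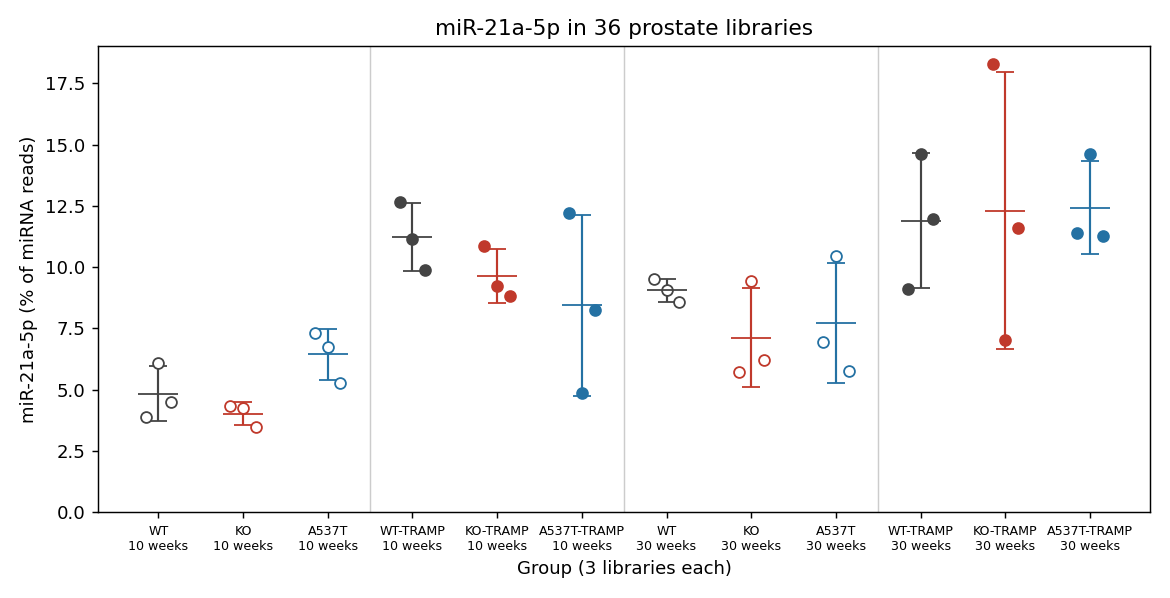
Share of miR-21a-5p in the miRNA reads (y axis, percent) for the 12 groups (x axis); each point is 1 library, open without and filled with the TRAMP transgene, the horizontal bar is the mean and the whiskers are 1 SD (n = 3). Group means ran from 4.03% in KO at 10 weeks to 12.4% in A537T-TRAMP at 30 weeks, and the TRAMP groups lay higher than the groups without it at each age.

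Ordered by their means, the 12 groups formed a gradual series for miR-21a-5p. The lowest was KO at 10 weeks with 4.03% ± 0.467 (SD, n = 3), and the highest was A537T-TRAMP at 30 weeks with 12.4% ± 1.89 (SD, n = 3). For miR-21a-3p the lowest was again KO at 10 weeks, with 3.86 ± 1.49 CPM (SD, n = 3), and the highest was WT-TRAMP at 10 weeks with 16.8 ± 4.21 CPM (SD, n = 3). In both orders, the libraries of all 11 neighbouring pairs of groups overlapped, so no group stood apart from the next.

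MiR-21a-3p followed the same broad pattern at far lower levels. At 10 weeks without the transgene it stood at 5.79, 5.88 and 3.62 CPM in WT, at 4.41, 4.99 and 2.16 CPM in KO and at 6.56, 7.63 and 5.45 CPM in A537T. The A537T value of 7.63 CPM rests on 5 reads in the shallowest library. At 10 weeks with the transgene it stood at 20.9, 16.9 and 12.5 CPM in WT-TRAMP, at 13.7, 13.7 and 10.9 CPM in KO-TRAMP and at 11.5, 5.82 and 11.7 CPM in A537T-TRAMP. The same A537T-TRAMP library was low for both arms.

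At 30 weeks without the transgene, miR-21a-3p stood at 7.39, 7.50 and 6.89 CPM in WT, at 5.07, 6.52 and 5.35 CPM in KO and at 5.49, 8.66 and 3.29 CPM in A537T. With the transgene it stood at 12.6, 21.2 and 16.4 CPM in WT-TRAMP, at 25.04, 8.84 and 14.5 CPM in KO-TRAMP and at 11.2, 23.8 and 14.6 CPM in A537T-TRAMP. At this age the lowest TRAMP library, at 8.84 CPM, lay just above the highest library without the transgene, at 8.66 CPM.

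**Figure D2:**
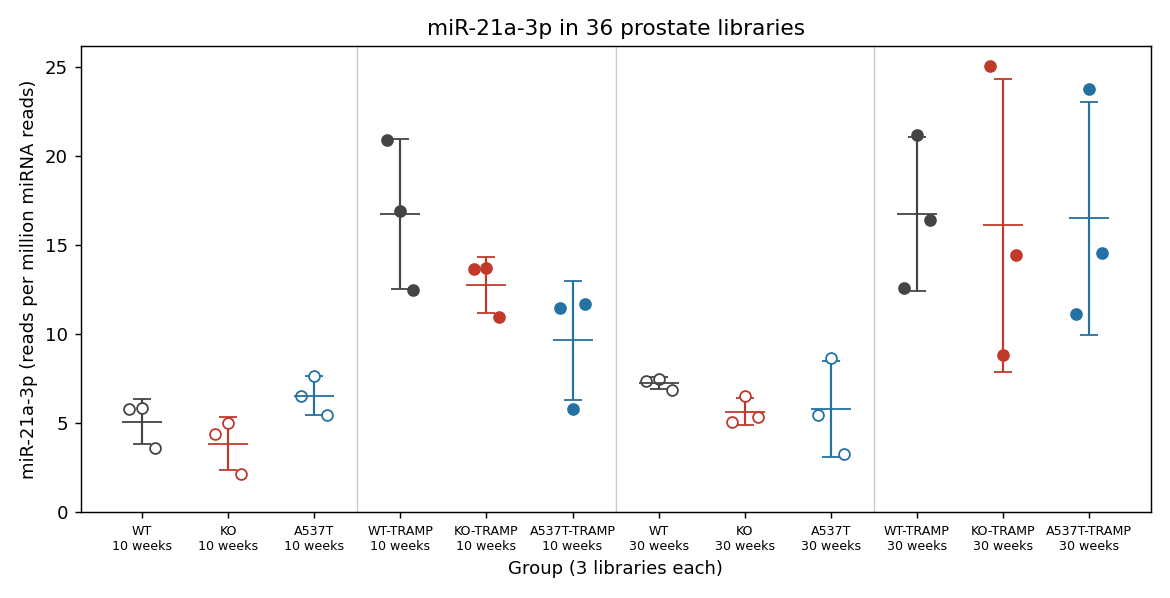
Level of miR-21a-3p (y axis, reads per 1000000 miRNA reads) for the 12 groups (x axis); each point is 1 library, open without and filled with the TRAMP transgene, the horizontal bar is the mean and the whiskers are 1 SD (n = 3). The TRAMP libraries reach up to 25.04 CPM and those without the transgene at most 8.66 CPM.

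The TRAMP comparison asks how the miRNA differs between prostates with and without the oncogenic transgene. Levels were compared as log2(CPM + 0.5) in limma, across 514 miRNAs with a mean of at least 1 CPM, and averaged over the 3 lines (n = 9 against 9 libraries). The p-values were adjusted by Benjamini-Hochberg over all 514, with a threshold of 0.05. At 10 weeks, both arms were higher with the transgene, in a comparison in which 65.6% of the miRNAs passed the test and 25.7% passed as higher. MiR-21a-5p was 1.91-fold higher, 0.93 ± 0.17 (SE) on the log2 scale (limma adjusted p = 3.66e-05). MiR-21a-3p was 2.39-fold higher, 1.26 ± 0.21 (SE) on the log2 scale (limma adjusted p = 1.04e-05). The median log2 fold change of all 514 miRNAs was -0.33, so both arms moved against the centre of the distribution. Without the WT line, whose libraries at 10 weeks held the most skeletal muscle miRNA, the log2 fold change was 0.78 for the 5p arm (limma adjusted p = 0.00270) and 1.07 for the 3p arm (limma adjusted p = 0.00103). When the skeletal muscle miRNAs were left out of all library totals, it was 0.78 for the 5p arm (limma adjusted p = 0.000382) and 1.11 for the 3p arm (limma adjusted p = 3.69e-05).

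At 30 weeks both arms again passed the test, beside 44.4% of all miRNAs, 28.2% as higher. MiR-21a-5p was 1.52-fold higher with the transgene, 0.60 ± 0.17 (SE) on the log2 scale (limma adjusted p = 0.00491). MiR-21a-3p was 2.46-fold higher, 1.30 ± 0.21 (SE) on the log2 scale (limma adjusted p = 8.92e-06). The 9 TRAMP libraries did not overlap with the 9 others for the 3p arm and did for the 5p arm. It was not counted how many of all miRNAs were separated in this way, so the separation of the 3p arm is a description only. The median log2 fold change of all miRNAs was 0.07. In bulk tissue a change in the share of cells that make the miRNA cannot be told apart from a change within those cells.

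The TRAMP effect was next set side by side in the 3 lines. At 10 weeks, the log2 fold change of miR-21a-5p was 1.23 in WT (limma adjusted p = 0.00158) and 1.26 in KO (limma adjusted p = 0.00214), and it was 0.31 in A537T (limma adjusted p = 0.444). For miR-21a-3p the log2 fold changes were 1.62 in WT (limma adjusted p = 0.000741), 1.67 in KO (limma adjusted p = 0.00112) and 0.48 in A537T (limma adjusted p = 0.306). Both arms thus passed in WT and KO and not in A537T. Of the 3 A537T-TRAMP libraries 1 was low, but neither arm passed in A537T with any single library left out. The smallest limma adjusted p was then 0.0963 for the 5p arm and 0.120 for the 3p arm. Without the transgene, A537T had the highest mean of the lines at this age. It was 6.44% against 4.83% in WT and 4.03% in KO for the 5p arm, and 6.55 against 5.10 and 3.86 CPM for the 3p arm. In these single-line comparisons 33.9%, 42.4% and 34.8% of the miRNAs passed in WT, KO and A537T. A contrast of the A537T with the WT effect, added after these values had been seen, gave -0.93 ± 0.42 (SE) for the 5p arm and -1.15 ± 0.51 (SE) for the 3p arm on the log2 scale. Neither difference passed the test, with a limma adjusted p of 0.595 for both and unadjusted p-values of 0.0341 and 0.0319 in limma, and 0% of all miRNAs passed it.

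At 30 weeks, miR-21a-3p passed in each line. Its log2 fold change with the transgene was 1.12 in WT, 1.32 in KO and 1.45 in A537T, with limma adjusted p-values of 0.0191, 0.00499 and 0.00591. MiR-21a-5p passed in none, with log2 fold changes of 0.37, 0.72 and 0.72 and limma adjusted p-values of 0.359, 0.0581 and 0.120. It passed in KO without library 17 (log2 fold change of 1.07, limma adjusted p = 0.00942) or 23 (0.94, limma adjusted p = 0.0260), and in A537T without library 26 (0.96, limma adjusted p = 0.0464). The shares of all miRNAs that passed were 28.6% in WT, 34% in KO and 10.9% in A537T. The calls of the 3p arm in single lines rest on 3 libraries a group, and over the alternatives their adjusted p reached 0.0832 in WT, 0.0637 in KO and 0.0711 in A537T. They were lost in WT without library 11, 12 or 21 and in A537T without library 14 or 27, and in KO and A537T when only the groups compared were fitted.

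Age was compared as 30 against 10 weeks within each background. Without the transgene, miR-21a-5p was 1.57-fold higher at 30 weeks, 0.65 ± 0.17 (SE) on the log2 scale (limma adjusted p = 0.00335), where 33.7% of all miRNAs passed and 13% passed as higher. For miR-21a-3p the log2 difference was 0.27 ± 0.21 (SE, limma adjusted p = 0.321), with a 95% interval of -0.15 to 0.70, and without the WT line it was 0.16 (limma adjusted p = 0.649). The call of the 5p arm is lost without the WT line, where the log2 fold change was 0.51 and the limma adjusted p 0.0651. With totals free of skeletal muscle miRNAs it was 0.49 and passed (limma adjusted p = 0.0283). In single lines the log2 difference of miR-21a-5p was 0.93 in WT (limma adjusted p = 0.0428), 0.79 in KO (limma adjusted p = 0.0675) and 0.23 in A537T (limma adjusted p = 0.650), and the shares of all miRNAs that passed were 9.34%, 14.4% and 14.6%. The call in WT held in 4 of 15 alternatives, with a limma adjusted p of 0.218 at totals free of skeletal muscle miRNAs. The difference in KO passed in 5 of 15, among them DESeq2 with an adjusted p of 0.00250.

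With the transgene, neither arm passed between the ages, where 26.5% of all miRNAs did. The log2 difference of 30 minus 10 weeks was 0.32 ± 0.17 (SE) for miR-21a-5p, with a 95% interval of -0.03 to 0.67 and a limma adjusted p of 0.155. For miR-21a-3p it was 0.32 ± 0.21 (SE), with a 95% interval of -0.11 to 0.74 and a limma adjusted p of 0.251. The TRAMP effect itself was not found to differ between the ages. The difference of the effects, 30 minus 10 weeks, was -0.33 ± 0.24 (SE) for the 5p arm (limma adjusted p = 0.281) and 0.04 ± 0.29 (SE) for the 3p arm (limma adjusted p = 0.921), while 37% of all miRNAs passed this test. Without the WT line the difference of the effects was -0.06 for the 5p arm (limma adjusted p = 0.880) and 0.32 for the 3p arm (limma adjusted p = 0.509).

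The genotype comparisons ask whether miR-21a depends on Elac2. They set KO or A537T against WT within each background and age, and the KO and A537T comparisons share their WT libraries. No change of either arm passed the test in any of the 8. For miR-21a-5p without the transgene at 10 weeks, the log2 fold change was -0.24 in KO (95% interval -0.85 to 0.36) and 0.43 in A537T (95% interval -0.18 to 1.03). When skeletal muscle miRNAs, high in WT at this age, were left out of the totals, these values were -0.53 (limma adjusted p = 0.358) and 0.23 (limma adjusted p = 0.855). With the transgene at 10 weeks, on full totals, the log2 fold change was -0.22 in KO-TRAMP (95% interval -0.82 to 0.39) and -0.50 in A537T-TRAMP (95% interval -1.10 to 0.10). These intervals are wide. That of A537T without the transgene holds 0.93, the size of the TRAMP effect at this age, and that of A537T-TRAMP holds a fall of the same size.

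At 30 weeks without the transgene, the log2 fold change of miR-21a-5p was -0.38 in KO (95% interval -0.98 to 0.22) and -0.28 in A537T (95% interval -0.88 to 0.33). With the transgene it was -0.03 in KO-TRAMP (95% interval -0.64 to 0.57) and 0.08 in A537T-TRAMP (95% interval -0.52 to 0.68). Each interval at 30 weeks holds a rise or a fall of 0.60, the size of the TRAMP effect at this age. The limma adjusted p-values of the 5p arm over these 8 comparisons ran from 0.576 to 0.981.

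For miR-21a-3p the log2 fold change of KO against WT at 10 weeks was -0.40, and -0.66 with totals free of skeletal muscle miRNAs. On full totals, the genotype differences of this arm on the log2 scale ran from -0.80 to 0.35. The lowest was that of A537T-TRAMP against WT-TRAMP at 10 weeks, where the groups did not overlap and 0% of all miRNAs passed, with an unadjusted p of 0.0346 and a limma adjusted p of 0.632. The groups also did not overlap for KO against WT at 30 weeks, with a log2 fold change of -0.34 and a limma adjusted p of 0.710. For neither comparison was it counted how many of all miRNAs were separated in this way. The number of all miRNAs that passed between genotypes depended on the method and on single libraries. At 10 weeks 3.89% of them passed in KO and 0.195% in A537T, and at 30 weeks 0.584% passed in KO and 5.45% in KO-TRAMP. For KO at 10 weeks limma called 20, edgeR 25 and DESeq2 40, and limma called 2 without library 30, 3 without 31, 4 without 33 and 94 without 28. For KO at 30 weeks limma called 3, edgeR 50 and DESeq2 65, and limma called 68 without library 19, 21 without 23 and 0 without any of the other 4. For KO-TRAMP at 30 weeks limma called 28, edgeR 50 and DESeq2 61, and limma called 98 without library 16, 11 without 10, 10 without 11, 3 without 12 and 0 without 17 or 18. For A537T at 10 weeks limma called 1, edgeR 0 and DESeq2 2. In the other 4 comparisons limma called 0 miRNAs. At an unadjusted p under 0.05 limma gave 29 in KO-TRAMP and 35 in A537T-TRAMP (both at 10 weeks), then 43 in A537T and 39 in A537T-TRAMP (both at 30 weeks). In the same order, edgeR called 0, 0, 7 and 1 miRNAs and DESeq2 called 0, 1, 21 and 8.

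**Figure D3:**
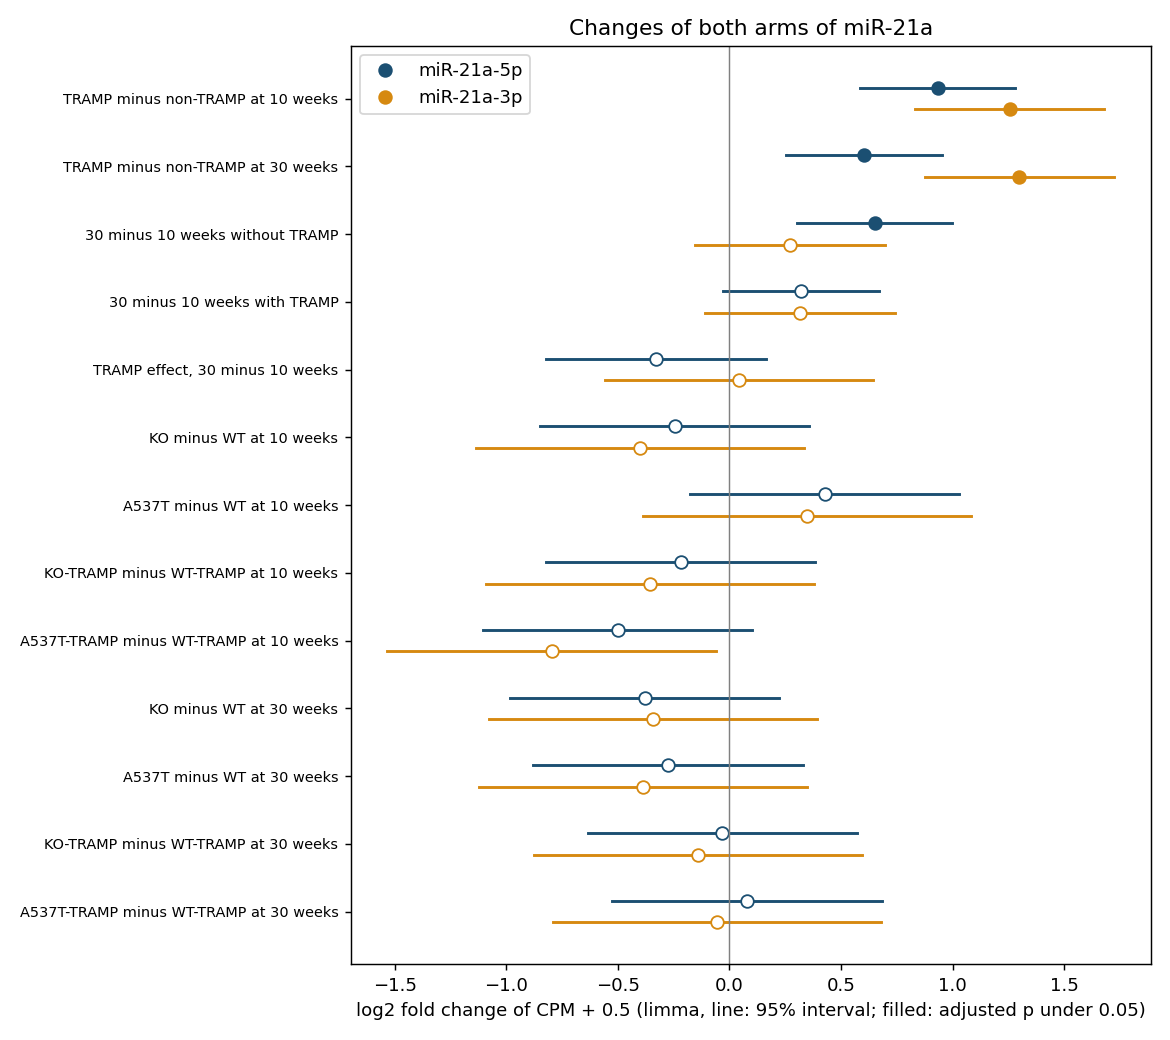
Log2 fold changes of CPM + 0.5 (x axis) of miR-21a-5p (blue) and miR-21a-3p (orange) in 13 contrasts (y axis); lines are 95% intervals from limma and filled points passed an adjusted p of 0.05. Both arms passed in both TRAMP contrasts, the 5p arm also between the ages without the transgene, and neither arm in any genotype contrast.

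The ratio of the arms was examined within each library, where no scaling between libraries enters. At 30 weeks, the 9 libraries without the transgene held 11263 to 17478 reads of miR-21a-5p per read of miR-21a-3p, with a median of 12459. The 9 TRAMP libraries held 6146 to 10209, with a median of 7300. The groups did not overlap. The 3p arm thus rose more than the 5p arm, and the ratio was 1.70-fold lower with the transgene, a mean log2 difference of -0.77. The difference was -0.81 in WT, -0.68 in KO and -0.82 in A537T. An exact permutation test within lines, two-sided over 8000 arrangements, gave p = 0.00025, the smallest it can give. After Benjamini-Hochberg adjustment over the 4 ratio comparisons, this exact permutation p was 0.001. Arm ratios of other hairpins were not computed, so whether such a shift is particular to miR-21a was not tested.

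At 10 weeks, the libraries without the transgene held 6754 to 16131 reads of the 5p arm per read of the 3p arm, with a median of 9827, and the TRAMP libraries held 6049 to 10645, with a median of 7905. These ranges overlapped, and the mean log2 difference was -0.41 (exact permutation p = 0.0115, adjusted p = 0.0230). Without the WT line it was -0.37 and no longer passed (exact permutation p = 0.0400, adjusted p = 0.0800, with 0.005 as the smallest p that its 400 arrangements allow). With age the ratio rose without the transgene by 0.35 on the log2 scale (exact permutation p = 0.0295, adjusted p = 0.0393). That call was also lost without the WT line, with an adjusted p of 0.133 by the exact permutation test. With the transgene, the log2 difference between the ages was -0.0069 (exact permutation p = 0.944, adjusted p = 0.944).

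**Figure D4:**
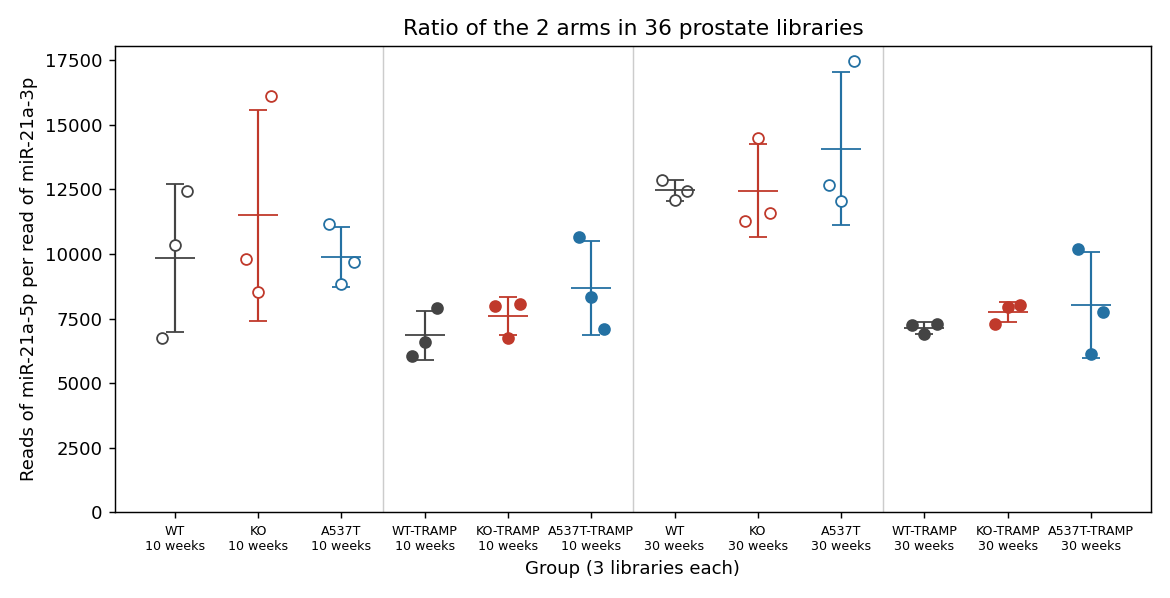
Reads of miR-21a-5p per read of miR-21a-3p (y axis) for the 12 groups (x axis); each point is 1 library, open without and filled with the TRAMP transgene, the horizontal bar is the mean and the whiskers are 1 SD (n = 3). At 30 weeks the TRAMP libraries stay at or below 10209 and the libraries without the transgene at or above 11263. Other hairpins were not examined in this way.

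The relatives of miR-21a were far rarer. MiR-21b had 2 to 125 reads a library, and the ratio to miR-21a-5p was 28.3 to 67.0 reads per 1000000 reads of it. MiR-21c, which shares the seed, had 1 to 95 reads a library, with a ratio of 17.9 to 65.7 reads per 1000000 reads of it. Over the 36 libraries, miR-21a-5p was read 40367992 times and miR-21c 1477 times. These sequences are so alike that counting could split reads between them, so the levels of miR-21b and miR-21c are uncertain. MiR-590-5p, a further member of the seed family, had 0 of 475438643 reads, which allows a level of up to 0.00631 CPM for 3 counts.

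The miRNAs whose levels ran most like miR-21a-5p over the 36 libraries were sought among 161 with a mean of at least 100 CPM, by Pearson's r of log2(CPM + 0.5). The 5 closest were miR-340-5p with r = 0.88, miR-200a-3p with 0.87, miR-361-3p with 0.86, miR-31-5p with 0.85 and miR-423-3p with 0.81. MiR-200a-3p belongs to the miR-200 family, which marks epithelium. None of the other epithelial miRNAs looked up here was among the 5 closest. After the group means had been removed, r was 0.71, 0.81, 0.60, 0.71 and 0.70 in the same order. MiR-21a-3p itself had an r of 0.90, and 0.83 within groups. These values are descriptions, since the libraries share groups and each level is part of the same total.

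Other miRNAs that are commonly raised in solid tumours were looked up from a list of 18. At 10 weeks 13 were higher with the transgene, 4 were lower and 1 did not pass in limma, with a median log2 fold change of 0.68 against -0.33 for all miRNAs tested, of which 25.7% were higher and 39.9% lower. At 30 weeks 12 were higher, 2 were lower and 4 did not pass, with a median of 0.93 against 0.07 for all miRNAs, of which 28.2% were higher and 16.1% lower. MiR-25-3p and miR-93-5p, which share a cluster, and miR-19a-3p of the miR-17-92 cluster had the smallest adjusted p among those that were higher. MiR-25-3p was 4.84-fold higher at 10 weeks and 4.24-fold at 30 weeks, miR-93-5p 3.25-fold and 3.68-fold, and miR-19a-3p 3.20-fold and 6.19-fold. The folds of miR-21a-5p, 1.91 and 1.52, were smaller than those of the miRNAs just named. On the log2 scale they were 0.93 and 0.60, above the median of the list at 10 weeks and below it at 30 weeks.

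The members of that list that were lower were equally named by their adjusted p. At 10 weeks they were miR-155-5p, which is also in the leukocyte list, with a log2 fold change of -0.88, miR-222-3p with -0.44, miR-10b-5p with -1.61 and miR-210-3p with -0.50. At 30 weeks they were miR-222-3p with -1.06 and its cluster partner miR-221-3p with -1.03.

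Levels of miRNAs known as markers of other cell types also differed with the transgene. At 10 weeks, where 25.7% of all miRNAs were higher and 39.9% lower, the 7 skeletal muscle miRNAs that were tested were all lower with the transgene, and the 12 listed together took 0.218% to 3.10% of the reads against 0.736% to 30.7% without it. The 6 miRNAs of fibroblasts and smooth muscle were lower too, at 7.60% to 22.8% against 7.22% to 40.3%, and so were the 2 of endothelium, at 0.493% to 1.11% against 1.24% to 1.86%. Of 7 epithelial miRNAs 6 were higher and 1 lower, at 6.07% to 9.33% against 3.91% to 6.70%. Of 6 leukocyte miRNAs 3 were higher and 3 lower, at 0.250% to 0.437% against 0.0991% to 0.259%. Of 3 red cell miRNAs 2 were lower, and of 4 neuroendocrine miRNAs 1 was higher.

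At 30 weeks, 28.2% of all miRNAs were higher and 16.1% lower. Muscle miRNAs took 0.187% to 0.937% with and 0.356% to 0.821% without the transgene, and 2 of 7 were lower. The epithelial sum was 5.92% to 9.22% against 5.71% to 10.0%, with 3 of 7 higher and 2 lower, and the leukocyte sum 0.252% to 0.864% against 0.177% to 1.09%, with 4 of 6 higher. Of 6 fibroblast and smooth muscle miRNAs 1 was lower, at 6.40% to 34.4% against 12.9% to 29.9%, and of 2 endothelial miRNAs none passed in limma. Of 3 red cell miRNAs 1 was higher and 1 lower, and of 4 neuroendocrine miRNAs 1 was higher. All listed markers had reads. The part of these lists in the higher levels of miR-21a was not tested.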

How the data were processed

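Small RNA libraries were prepared with the Illumina TruSeq Small RNA kit and sequenced on a NovaSeq. The authors merged read pairs with BBMerge, counted with mirDeep2 against GRCm38 and miRBase, summed identical miRNAs and divided by DESeq2 size factors. These deposited normalised counts, a signal per miRNA and library, filled 8 tables of 6 libraries. The authors' tables of fold changes, standard errors and s-values were not used.

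Columns carry library numbers but no group. Where a column occurs in the tables of both mutant lines it was read as WT, and otherwise as the line its table names, with "Mut" read as A537T. Columns without a sample numbered 0. The 12 control columns agreed between tables.

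Whole reads were recovered by dividing by the value of 1 read (100% whole within 0.01 reads). CPM is reads over the library total, which cancels the size factors. Counting error at 655455 to 21870210 reads covers neither PCR nor biology. The labels give no animal per replicate, so p-values measure the spread between libraries.

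The test was limma 3.58.1 (R 4.3.3) with a variance trend on log2(CPM + 0.5), 12 group means and all 36 libraries, which understates the change of low miRNAs. The fit was tested on simulated data. Alternatives were edgeR 4.0.16 and DESeq2 1.42.0 on recovered reads, TMM scaling, a pseudocount of 0.1 CPM, no filter or 100 CPM, totals without skeletal muscle miRNAs, only the groups compared, and each library left out. Totals without miR-21a-5p, the KO and A537T lines alone, and the A537T minus WT contrast were chosen after seeing the data. The miRNAs named were both arms, their relatives, the 5 with the highest r, and up to 3 a direction from the solid tumour list by adjusted p. MiR-210-3p was added so that all lower members of that list were named. The members and lists were chosen with earlier results of these data known.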

Additional observations from a re-analysis of the deposited data

How the results depend on the processing

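Of 615 alternative values for the 30 main results, 572 kept direction and side of the threshold, and 20 results did so under all alternatives run. Both arms kept their TRAMP calls at both ages throughout, with an adjusted p of at most 0.0352. With the KO and A537T lines only, 3 calls were lost: miR-21a-5p with age without TRAMP (0.51), the arm ratio with TRAMP at 10 weeks (-0.37) and the arm ratio with age without TRAMP (0.33); the cause was not tested. With each library left out, the last ran from 0.27 to 0.44, and it passed in only part of these fits.

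All other changes of sign were in differences that had not passed. The 3p interaction of TRAMP and age, 0.04, was -0.16 with TMM, -0.094 with edgeR and -0.27 with DESeq2, and -0.080 to 0.16 leaving out each library. MiR-21a-5p in KO-TRAMP against WT-TRAMP at 10 weeks was 0.028 with DESeq2. At 30 weeks A537T-TRAMP against WT-TRAMP was -0.050 with edgeR and -0.042 with DESeq2 and -0.10 to 0.24 leaving out each library for the 5p arm, and -0.35 to 0.18 for the 3p arm. KO-TRAMP against WT-TRAMP at 30 weeks ran from -0.37 to 0.32 for the 5p and -0.51 to 0.21 for the 3p arm. The arm ratio with age with TRAMP was 0.00047 with 1 read added to each arm and -0.070 to 0.052 leaving out each library.

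In single lines, leaving out each library gave -0.010 to 0.66 for the 5p arm with TRAMP in A537T at 10 weeks. With age the 3p arm ran from -0.19 to 0.18 in WT-TRAMP, -0.16 to 0.57 in KO-TRAMP and -0.55 to 0.083 in A537T, and the 5p arm from -0.095 to 0.24, -0.088 to 0.60 and -0.014 to 0.42. The 3p arm in WT-TRAMP was 0.074 with TMM, 0.061 with edgeR, 0.064 with DESeq2 and 0.0082 with totals without miR-21a-5p, in KO-TRAMP -0.012 with TMM, and in A537T 0.020 with DESeq2. The age call of miR-21a-5p in WT alone held in 4 of 15 alternatives. TMM moved the median of all miRNAs by 0.12 at 10 weeks with TRAMP.

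For A537T against WT at 30 weeks TMM called 14 miRNAs and limma on totals 0. For KO-TRAMP against WT-TRAMP at 30 weeks 28 became 54 with no filter and 0 when only the groups compared were fitted. For KO against WT at 10 weeks 20 likewise became 0 and at 30 weeks 3 became 0. In single lines, the 100 CPM filter aside, the counts with TRAMP ran from 120 to 197 in WT, 98 to 246 in KO and 109 to 204 in A537T at 10 weeks, and 92 to 209, 93 to 230 and 35 to 87 at 30 weeks. Those with age without TRAMP ran from 19 to 63, 41 to 171 and 37 to 110. In the averaged TRAMP and age comparisons the counts of all miRNAs called stayed within 1.5 times, except at the 100 CPM filter, which tests fewer miRNAs (116, 83, 68 and 47 in place of 337, 228, 173 and 136, and 65 in place of 190 for the interaction). No paired analysis was possible because the columns carry no replicate number. A filter at 100 CPM left no value for the 3p arm. The 3p arm is limited by depth, with as few as 5 reads a library.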
